A study of Bos taurus with 12 samples.

Results

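In cultures of bovine fat-derived cells, 107 of 22372 genes were more abundant when rosiglitazone was left out of the differentiation medium, while their mean difference without insulin lay within 0.5 of 0 on the log2 scale. The genes were chosen from the batch-corrected table of CPM values (each gene's reads scaled to a fixed total per library), with every level L taken as log2(CPM + 1). A gene entered when its mean over the 12 libraries was at least 20 CPM, its mean difference between rDM 0% Ros and rDM over 3 donors was at least 1 on the log2 scale and above 0 in each donor, and its mean difference between rDM 0% Ins and rDM lay between -0.5 and 0.5. They made up 2.59% of the 4132 genes that reached this mean level, and 27.9% of the 383 such genes that met the rosiglitazone criteria at any insulin difference. The libraries without hydrocortisone and progesterone entered the choice only through the mean over the 12 libraries. By the mean over the other 9 libraries, 106 of the 107 genes would have been kept, and the exception, ENSBTAG00000012409, had a mean of 18.4 CPM there.

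Stromal vascular cells (SVC, labelled MSC) isolated from the subcutaneous fat of 3 Belgian Blue cattle were differentiated until day 12 in DMAD, a serum-free medium, and 1 library per medium was made from each donor (replicates A, B and C). The reference medium rDM contained insulin and rosiglitazone, with the hydrocortisone and progesterone of DMAD. The media rDM 0% Ins and rDM 0% Ros each lacked the inducer in the name and kept everything else. The medium rDM 0% HC/PR kept insulin and rosiglitazone and lacked hydrocortisone and progesterone. Every culture was kept in its medium until day 12, and no group was taken before differentiation. The groups did not differentiate alike. By lipid staining at an earlier day, the study found almost no differentiation without rosiglitazone and a large loss without insulin. Without HC/PR it found less differentiation than in rDM, in clusters of cells. The study gives the age and sex of its cattle for all its donors together, not for the donors of these libraries. Each donor was also its own batch of mRNA extraction.

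Rosiglitazone is a synthetic agonist of PPARγ, the nuclear receptor that drives the adipocyte program. When precursor cells become adipocytes, genes for lipid storage and metabolism are switched on, and many genes of the proliferating, matrix-producing precursor state are switched off. Insulin promotes the same process through its own receptor and favours lipid synthesis, and hydrocortisone and progesterone are steroid hormones that can bind the glucocorticoid receptor. The table identifies genes by Ensembl identifiers only, and 0 of the 22372 identifiers could be paired with a name here. The functions of the 107 genes, marker genes of adipocytes, precursors or other cells, and gene sequences were therefore not analysed here.

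Libraries held between 295288 reads (rDM 0% Ins, donor C) and 1107442 reads (rDM, donor A) as recovered from the CPM table, where every value was a whole multiple of the CPM of 1 read. These are counts after the batch correction, called reads here, and can differ from the reads sequenced. A count of 3 reads corresponded to between 2.71 and 10.2 CPM. The deposited libraries carry a library number, 1 or 2, which is taken here as the pool in which they were sequenced. The labels do not say so, and they give only the batches of the donors. By this number, all libraries of donor A were in pool 1 and all of donor C in pool 2. For donor B, rDM and rDM 0% Ins were in pool 1, and rDM 0% Ros and rDM 0% HC/PR were in pool 2. If the number is the pool, then in donor B the pool cannot be told apart from the absence of rosiglitazone or of HC/PR, and the values of donors A and C are given alongside as comparisons within a pool.

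The typical gene of the group was of moderate abundance, and its level without rosiglitazone was more than double that in rDM. The median of the genes' mean levels was 34.7 CPM in rDM (quartiles 20.9 and 66.9), 40.0 CPM in rDM 0% Ins (quartiles 24.3 and 76.4), 55.4 CPM in rDM 0% HC/PR (quartiles 27.3 and 105.8) and 94.3 CPM in rDM 0% Ros (quartiles 56.1 and 164.5). Taken library by library, the median over the 107 genes was 36.1, 36.3 and 31.2 CPM in rDM (donors A, B and C) and 96.7, 85.7 and 94.4 CPM in rDM 0% Ros. It was 46.8, 33.5 and 37.3 CPM in rDM 0% Ins. In rDM 0% HC/PR it was 41.5, 63.8 and 42.0 CPM. The libraries without rosiglitazone stood above all the others. The choice of genes set this against rDM and rDM 0% Ins, and it favoured it against rDM 0% HC/PR, since the genes were chosen to be high in rDM 0% Ros. Donor B was the highest of the libraries without HC/PR. In bulk RNA, more cells that express a gene and more RNA of that gene per cell cannot be told apart.

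**Figure D1:**
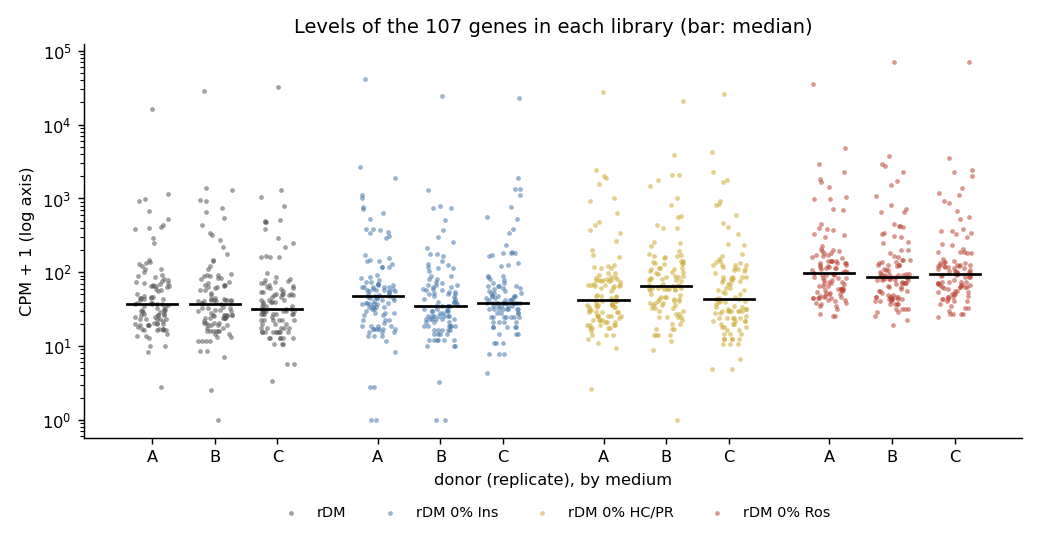
Level of each of the 107 genes in each of the 12 libraries, as CPM + 1 on a log axis, grouped by medium, with donors A, B and C side by side. Each point is a gene and each bar is the median of a library, which lies between 31.2 and 36.3 CPM in rDM and between 85.7 and 96.7 CPM in rDM 0% Ros.

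The size of the difference without rosiglitazone was used to choose the genes and is given as a description. Its median was 1.29 on the log2 scale (quartiles 1.13 and 1.60), and it ran from 1.00 to 4.46. Most genes lay near the lower limit of the rule. There were 46 genes between 1 and 1.25, 29 between 1.25 and 1.5, 26 between 1.5 and 2, and 6 at 2 or more. The genes just inside the limit had differences of 1.0006, 1.009 and 1.010, and the genes just outside it had 0.998, 0.997 and 0.995. At the limit of the insulin criterion, genes with 0.497 and 0.496 were kept and genes with 0.501 and 0.507 were not.

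By donor, the median difference without rosiglitazone was 1.38, 1.31 and 1.43 in A, B and C. Nothing is read from the nearness of these medians, since the rule set limits on this contrast. Over all genes of at least 20 CPM the same medians were 0.07, -0.08 and 0.12. Single genes varied more. The median standard deviation between donors was 0.41, and 44 of the 107 genes had a standard deviation above 0.5. A difference of at least 1 was reached by 85 genes in donor A, 69 in donor B and 84 in donor C, and by 38 genes in every donor. All libraries without rosiglitazone lay above all rDM libraries for 98 of the 107 genes, where 17.5% of the genes of at least 20 CPM had such a separation. The fit across all 9267 tested genes (limma with the donor as a block) called 35 of the 107 genes, where 1.80% of the tested genes were called higher and 3.27% lower. Nothing is read from these counts, since the rule used the same contrast.

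The insulin criterion held for the mean over donors more than for single donors. The mean insulin difference of the 107 genes ran from -0.49 to 0.50 with a median of 0.17, and it was above 0 for 73 of them. The median over all tested genes was 0.19, and nothing is read from the nearness of these medians, which the rule fixed. By donor the median was 0.18, -0.18 and 0.29 in A, B and C, beside -0.00, 0.25 and 0.28 over all genes of at least 20 CPM. The median standard deviation of the insulin difference between donors was 0.78, larger than the width of the band on either side of 0. None of the 107 was called by limma (0.658% of the tested genes were called higher and 0.852% lower), nor had an unadjusted p under 0.05, and the rule used this contrast too. In a single donor, the difference lay within 0.5 of 0 for 55 genes in donor A, 52 in donor B and 55 in donor C. By scaling with TMM factors (trimmed mean of M-values) in place of library size, the median of all tested genes moved to -0.03, and 14 of the 107 genes then fell outside the band. With the same scaling 32 of the 107 genes had a difference without rosiglitazone below 1. The rule then selected 92 genes, and 63 of them were among the 107.

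Without HC/PR, the 107 genes stood on average between their levels in rDM and in rDM 0% Ros. The median difference from rDM was 0.48 on the log2 scale (quartiles 0.20 and 0.79), beside 0.00 over all tested genes and -0.03 over the genes of at least 20 CPM. By donor, the median was 0.24 in A, 0.89 in B and 0.53 in C, beside -0.05, 0.06 and -0.11 over all genes of at least 20 CPM. The name under which these genes were grouped, raised only without rosiglitazone, comes from the rule, which set no limit on the difference without HC/PR. The rule selected genes that were low in the rDM libraries, and the comparison with rDM 0% HC/PR uses those libraries again, so the values above rDM are not independent of the choice. Over the donors whose libraries all carried the same library number (A and C), the median difference was 0.28 without HC/PR and 1.39 without rosiglitazone. With the pool as a further term in the fit, the medians were 0.32 and 1.198.

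**Figure D2:**
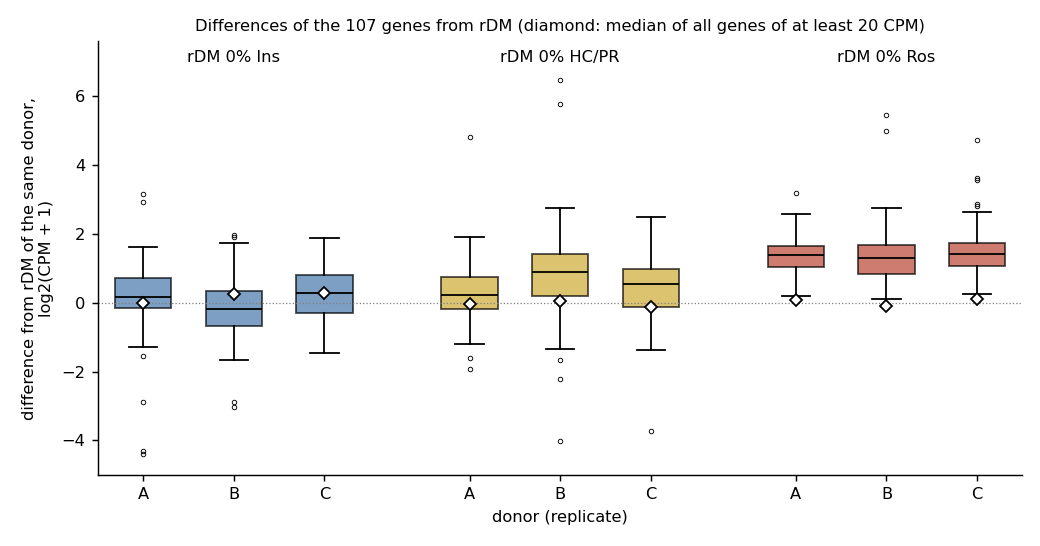
Differences of the 107 genes from rDM of the same donor on the log2(CPM + 1) scale, for rDM 0% Ins, rDM 0% HC/PR and rDM 0% Ros, in donors A, B and C. Boxes span the quartiles with the median as a line, whiskers reach 1.5 times the box and circles are genes beyond them. Diamonds are medians of all genes of at least 20 CPM. The boxes without HC/PR have medians of 0.24, 0.89 and 0.53, between those of the other media.

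The values without HC/PR varied from gene to gene, and whether this variation exceeded the error of the single genes was not tested. The mean difference was above 0 for 87 of the 107 genes, where 47% of the genes of at least 20 CPM were above 0, and below 0 for 20. It was at least 1 for 14 genes. Levels without HC/PR exceeded rDM in each donor for 38 genes (35.5%), beside 11.7% of the genes of at least 20 CPM, and in 2 of 3 donors for another 50. In donors A and C alone, 48 genes were above rDM in both, where 20.2% of the genes of at least 20 CPM were. All rDM 0% HC/PR libraries lay above all rDM libraries for 26 genes (7.43% of the genes of at least 20 CPM), and the reverse separation was found for 0 of the 107 genes (10.6%). The median gene had 36.5% of its rosiglitazone difference in the absence of HC/PR. For 36 genes the level without HC/PR was nearer to rDM 0% Ros than to rDM, and for 71 genes it was nearer to rDM or below it.

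Few of these differences passed the test across all genes. With limma and Benjamini-Hochberg adjustment, 1 of the 107 genes was called higher without HC/PR than in rDM, and it was also the only gene so called among all 9267 (0.0108%). At an unadjusted p under 0.05, 21 of the 107 genes were higher and 0 were lower, where 2.64% of the tested genes were higher. The rule chose genes that were low in the same rDM libraries, so counts and p-values of this contrast are favoured by the choice. DESeq2 on the recovered reads called 3 of the 107 higher (0.0863% of the genes tested). By edgeR 0 were called, for which the share over all tested genes is not given. The 95% confidence interval of a gene's difference had a median half-width of 0.88, larger than the median difference itself. With 3 donors, most single genes could therefore not be told from rDM.

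**Figure D3:**
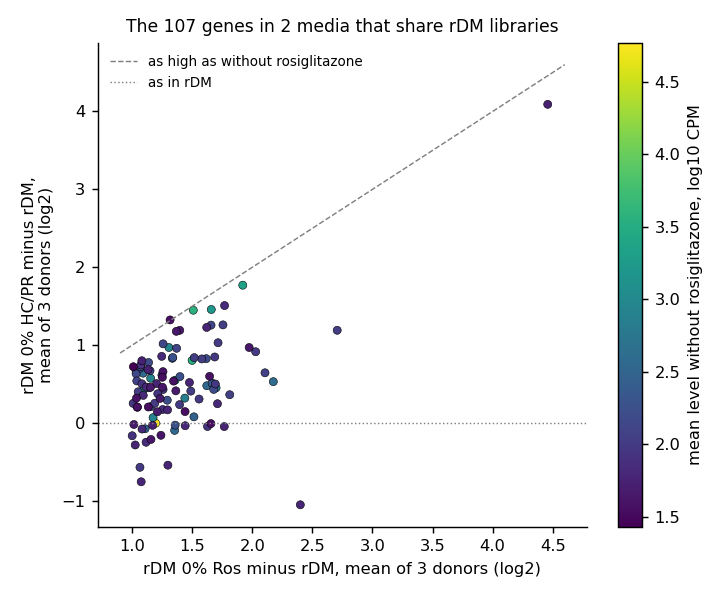
Mean difference from rDM over 3 donors on the log2(CPM + 1) scale, without rosiglitazone (horizontal) and without HC/PR (vertical), for the 107 genes, coloured by the log10 of the mean CPM in rDM 0% Ros. Both axes use the same rDM libraries, so the position of a gene on one is tied to the other. Most genes lie between the dotted line (as in rDM) and the dashed line (as high as without rosiglitazone), and 20 lie below the dotted line.

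The gene called without HC/PR was ENSBTAG00000022155, named here after its values were seen. Its level was 527, 656 and 476 CPM in rDM (donors A, B and C) and 1591, 1788 and 2305 CPM in rDM 0% HC/PR. In rDM 0% Ros it was 1430, 2721 and 2305 CPM, and in rDM 0% Ins 389, 301 and 566 CPM. The libraries without rosiglitazone and those without HC/PR occupied the same range, and none of them overlapped with rDM or rDM 0% Ins. The difference between rDM 0% HC/PR and rDM was 1.77 ± 0.25 (SE) on the log2 scale, with a limma adjusted p of 0.0277, and higher in 3 of 3 donors. The call was lost in 15 of 23 alternatives, with an adjusted p of 0.0942 by edgeR on the recovered reads and 0.224 with the library pool in the fit, and the difference stayed between 1.51 and 1.93. Between rDM 0% HC/PR and rDM 0% Ros the difference was -0.15, with a 95% confidence interval from -0.68 to 0.38.

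Compared with the medium without insulin, 2 of the 107 genes were called higher without HC/PR (0.475% of the tested genes) and 0 were called lower (0.647%), and at an unadjusted p under 0.05, 18 were higher (4.37% of the tested genes) and 1 was lower (8.24%). This comparison does not use the rDM libraries. The rule nevertheless held the insulin libraries close to the rDM levels, which it chose to be low beside rDM 0% Ros. Values above rDM 0% Ins are therefore not independent of the choice, and nothing is read from these counts. Over the 107 genes the median difference between rDM 0% HC/PR and rDM 0% Ins was 0.33, beside -0.18 over all tested genes. By donor the median was -0.08, 1.02 and 0.09 in A, B and C, beside -0.00, -0.15 and -0.40 over all genes of at least 20 CPM. As a description, the group stood above the typical gene in donors B and C but not in A, and the distance was largest in donor B. There the libraries compared carried different library numbers, and the part of this in the distance was not tested.

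One of the called genes was again ENSBTAG00000022155, with a difference of 2.21 ± 0.25 (SE) and a limma adjusted p of 0.0011. The other was ENSBTAG00000048782, also named after its values were seen. It was measured at 1158, 1282 and 1304 CPM in rDM and at 1887, 1304 and 1104 CPM in rDM 0% Ins. Its level was 2414, 3871 and 4219 CPM in rDM 0% HC/PR and 4803, 3792 and 2454 CPM in rDM 0% Ros. The media without rosiglitazone and without HC/PR overlapped with each other and lay above rDM and rDM 0% Ins in every library. The difference from rDM 0% Ins was 1.29 ± 0.27 (SE) with a limma adjusted p of 0.0388. This call was lost with TMM scaling (adjusted p 0.0503), a pseudocount of 0.1 (0.0748), the pool in the fit (0.168) and limma without the intensity trend (0.284), and without donor B (0.273) or donor C (0.478). For ENSBTAG00000022155 the call against rDM 0% Ins was lost without the trend (0.0736) and kept in the other fits named here. For ENSBTAG00000048782 the difference from rDM was 1.45 with an adjusted p of 0.111.

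Compared with the medium without rosiglitazone, 8 of the 107 genes were called lower without HC/PR (0.788% of the tested genes), and 0 were called higher (1.76%). The number called lower was 3, 16 and 0 with donor A, B or C left out, and 0 by limma without the intensity trend. The share of all tested genes called in those fits is not given, and nothing about the 107 genes is read from these counts. At an unadjusted p under 0.05, 45 genes were lower, where 6.32% of the tested genes were. The 8 called genes were lower by between 0.94 and 1.67 on the log2 scale, and their differences from rDM ran from -0.57 to 0.53. The median over the 107 genes was -0.84, and by donor -1.09, -0.46 and -1.15 in A, B and C. All rDM 0% Ros libraries exceeded all rDM 0% HC/PR libraries for 52 genes, beside 11.5% of the genes of at least 20 CPM. The rDM 0% Ros libraries are those in which the genes were chosen to be high.

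The genes with the higher levels without rosiglitazone had larger median differences without HC/PR, although this trend was not even over the levels and was not tested. The 12 genes at 500 CPM or more in rDM 0% Ros had a median HC/PR difference of 0.62, and 7 of them were above rDM in each donor. The 39 genes between 100 and 500 CPM also had a median of 0.62, with 14 above rDM in each donor and 4 below rDM in the mean. The 33 genes between 50 and 100 CPM had a median of 0.31, with 9 above rDM in each donor and 11 below rDM in the mean. For the 23 genes under 50 CPM the median was 0.41, and 8 were above rDM in each donor. The difference without rosiglitazone itself had medians of 1.33, 1.36, 1.25 and 1.25 over these levels. Nothing is read from their nearness, since the rule set a lower limit on this difference.

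Most reads of the group came from a single gene. ENSBTAG00000019203 had the highest level without rosiglitazone and held 67.2% of the summed CPM of the 107 genes there, and the 10 genes that followed held 61.6% of the rest. It was among the 3 most abundant genes of every library. Its level was 16332, 28277 and 31972 CPM in rDM (donors A, B and C) and 35637, 70811 and 70336 CPM in rDM 0% Ros. In rDM 0% Ins it was 41577, 24653 and 22734 CPM, and in rDM 0% HC/PR 27472, 20708 and 25877 CPM. Its rDM 0% Ros libraries lay above all rDM libraries, but donor A had more of it without insulin than without rosiglitazone. Its small mean insulin difference of 0.22 combined 1.35 in donor A with -0.20 in donor B and -0.49 in donor C. Its difference without HC/PR was -0.00 ± 0.33 (SE) with a limma adjusted p of 1.00, and was positive in donor A and negative in the others.

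Without this gene, the remaining 106 summed to 10783 ± 1003 CPM in rDM (SD, n = 3), 12880 ± 3356 CPM in rDM 0% Ins, 19706 ± 2681 CPM in rDM 0% HC/PR and 28753 ± 1310 CPM in rDM 0% Ros. By donor, the log2 ratio of this sum to rDM was 0.70, 0.91 and 0.99 without HC/PR, and 1.51, 1.29 and 1.46 without rosiglitazone. Without insulin it was 0.61, -0.34 and 0.40. The sum in every rDM 0% HC/PR library lay above that in every rDM library. Of the difference between the mean sums without HC/PR and in rDM, 50.2% came from 3 genes, among them ENSBTAG00000048782 and ENSBTAG00000022155. Without them the log2 ratios without HC/PR were 0.52, 0.70 and 0.58. They were above the median of the single genes in donors A (0.24) and C (0.53), and below it in donor B (0.89).

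The largest difference without rosiglitazone and the largest without HC/PR belonged to the same gene, ENSBTAG00000012409. It reached the mean of 20 CPM only through its rDM 0% HC/PR libraries, so its high value there is tied to its selection. Among the other 106 genes the highest HC/PR difference was 1.77, that of ENSBTAG00000022155. It was close to absent from rDM, with 2, 0 and 1 reads in donors A, B and C, and from rDM 0% Ins, with 1, 0 and 1 reads. Without rosiglitazone it had 13, 14 and 34 reads (24.6, 42.8 and 89.1 CPM). Without HC/PR it had 47, 33 and 3 reads (78.0, 87.8 and 5.73 CPM). Donors A and B were high without HC/PR, and donor C was near its level in rDM. Pooled over donors, its share of reads without rosiglitazone was 36.0 times that in rDM (95% interval 11.7 to 179.2). Without HC/PR its share was 40.3 times that in rDM (13.3 to 199.2). These intervals cover counting error only and treat the batch-corrected counts as reads that were sequenced. Both ratios were favoured by how the gene was chosen, and the second came mainly from donors A and B. Its HC/PR difference was 4.09 ± 1.01 (SE) on the log2 scale, with a limma adjusted p of 0.385. Without the rDM 0% HC/PR library of donor C the difference was 5.73, and without that of donor B it was 3.05. It was 2.90 without donor B and 3.22 with the pool in the fit. No test of this difference is read, since the rDM 0% HC/PR libraries brought the gene into the group.

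The gene with the lowest HC/PR difference was ENSBTAG00000006187, also of low abundance. Its level was 15.4, 15.1 and 4.80 CPM in rDM and 49.3, 61.2 and 70.8 CPM in rDM 0% Ros. It was 7.20, 38.0 and 6.77 CPM in rDM 0% Ins and 34.9, 0 and 3.82 CPM in rDM 0% HC/PR. All libraries without rosiglitazone exceeded the other 9. The libraries without HC/PR ranged from a count of 0 after the batch correction to above every rDM library. A count of 3 reads corresponded to 7.98 CPM in the library with 0. The HC/PR difference was -1.05 ± 1.01 (SE) with a limma adjusted p of 0.998. It turned positive when the HC/PR library of donor B was left out (0.53), with the library pool in the fit (0.07), and in edgeR on the recovered reads (0.16).

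**Figure D4:**
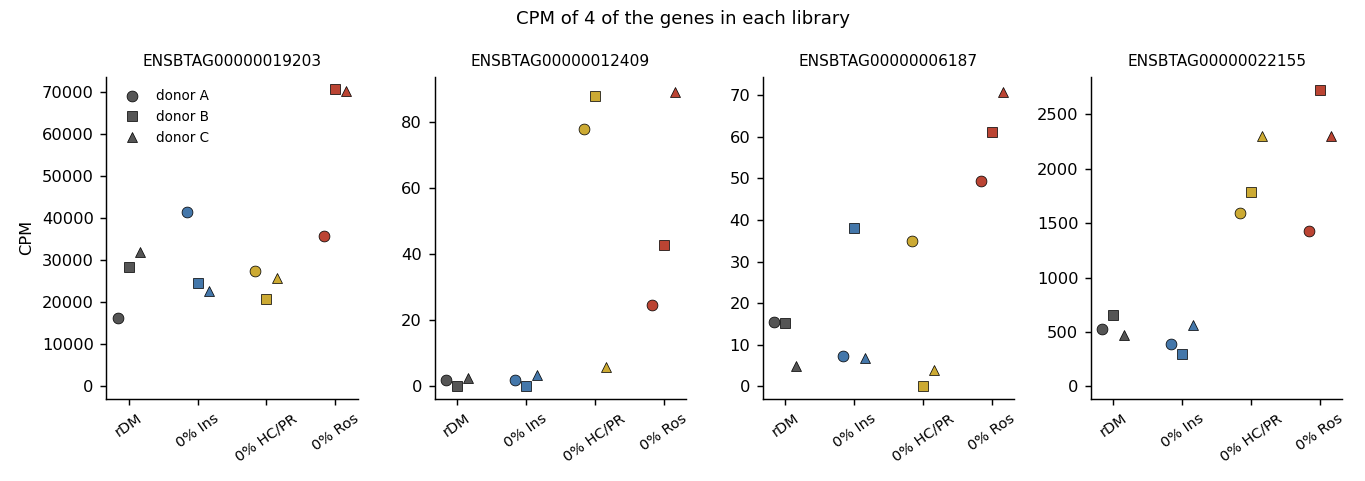
Level in CPM (linear axis from 0, each panel with its own range) of 4 of the genes in each library, by medium, with donor A as circles, B as squares and C as triangles. ENSBTAG00000022155 lies between 1430 and 2721 CPM in all libraries without HC/PR or rosiglitazone, while ENSBTAG00000019203 without HC/PR stays at 27472 CPM or less.

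The genes can be set beside the other genes that met the rosiglitazone criteria. The 256 genes with an insulin difference above 0.5 had a median difference of 1.42 without rosiglitazone and 0.53 without HC/PR, and 33.6% of them were above rDM in each donor without HC/PR. The 20 genes with an insulin difference below -0.5 had medians of 1.62 and 0.71, and 45% were above rDM in each donor. The corresponding values of the 107 genes were 1.29, 0.48 and 35.5%. No test was made between these groups.

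To read the pattern in libraries that took no part in the choice, the rule was applied to 2 donors at a time and the genes were then measured in the remaining donor. This gave 85 genes with donor A left out, 143 with donor B left out and 138 with donor C left out, of which 57, 60 and 69 were among the 107. In the donor left out, their median difference without rosiglitazone was 1.21, 0.87 and 1.19, beside 0.07, -0.09 and 0.12 over all genes of at least 20 CPM. It was above 0 for 77 of 85 (90.6%), 118 of 143 (82.5%) and 117 of 138 genes (84.8%), beside 53.1%, 45.5% and 56.7% of all genes of at least 20 CPM. The genes thus stood higher without rosiglitazone in each donor that had not been used to choose them, with a smaller median than in the choosing donors (1.34, 1.32 and 1.24).

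The insulin criterion carried over less well. In the donor left out, the median insulin difference of the chosen genes was 0.34, 0.52 and 0.36, beside -0.00, 0.25 and 0.28 over all genes of at least 20 CPM. It lay within 0.5 of 0 for 38 of 85 (44.7%), 43 of 143 (30.1%) and 50 of 138 genes (36.2%), a smaller share than the 57.4%, 43.0% and 47.4% of all genes of at least 20 CPM. Without HC/PR, the median difference in the donor left out was 0.15 in A, 0.62 in B and 0.41 in C, beside -0.05, 0.05 and -0.11 over all genes. It was above 0 for 48 of 85 (56.5%), 100 of 143 (69.9%) and 83 of 138 genes (60.1%), beside 46.5%, 53.1% and 43.0% of all genes. Donor B, whose rDM and rDM 0% HC/PR libraries carried different library numbers, had the largest HC/PR value and donor A the smallest.

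The same reading was made in the estimated reads per transcript, which had not been batch-corrected. The rule selected 82, 154 and 153 transcripts with donors A, B and C left out. Their median difference in that donor was 1.02, 0.64 and 0.87 without rosiglitazone and 0.11, 0.45 and 0.20 without HC/PR. Over all transcripts of at least 20 CPM, the medians were 0.07, -0.09 and 0.07 without rosiglitazone and -0.09, 0.00 and -0.07 without HC/PR. Above 0 were 86.6%, 77.3% and 81.0% of the selected transcripts without rosiglitazone (53.1%, 43.8% and 52.8% of all), and 57.3%, 66.9% and 60.8% without HC/PR (43.1%, 49.2% and 44.0% of all). The median insulin difference of the selected transcripts was 0.22, 0.23 and 0.17 in the donor left out, beside -0.03, 0.15 and 0.19 over all. The corrected table was corrected over all donors together, so a donor left out of the choice had still entered the correction. In the transcripts it had not.

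**Figure D5:**
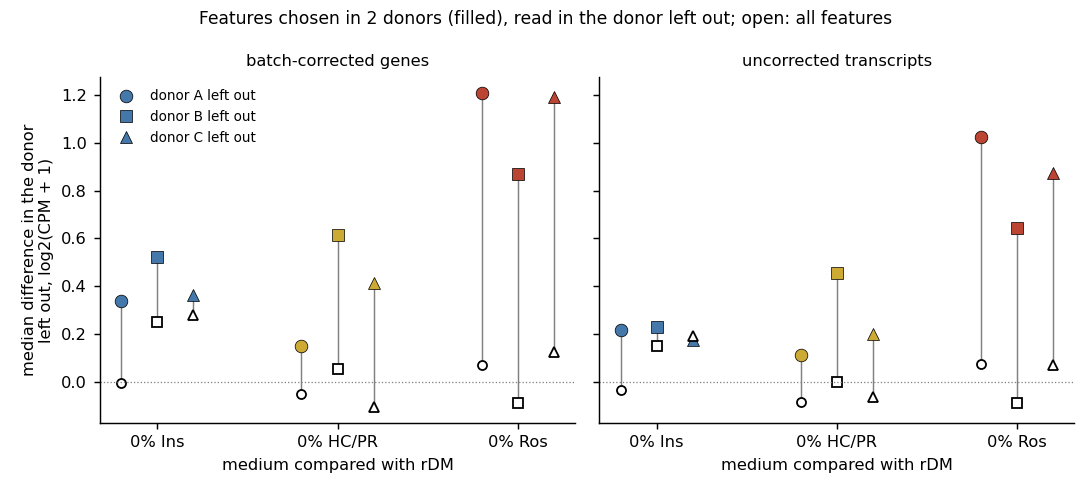
Median difference from rDM on the log2(CPM + 1) scale in a donor that was not used to choose the features, for batch-corrected genes (left) and uncorrected transcripts (right). Filled symbols are the chosen features and open symbols all features of at least 20 CPM, with circles, squares and triangles for donors A, B and C left out. Without rosiglitazone the chosen genes lie between 0.87 and 1.21 and without HC/PR between 0.15 and 0.62.

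Applied to all donors of the uncorrected data, the rule selected 114 of 4158 transcripts of at least 20 CPM (2.74%). Their median difference was 1.26 without rosiglitazone and 0.35 without HC/PR, beside -0.05 without HC/PR over all transcripts of at least 20 CPM. By donor the HC/PR median was 0.24, 0.59 and 0.34. For 40 of the 114 transcripts, the level without HC/PR was above rDM in each donor, where 10.6% of all transcripts of at least 20 CPM were. By edgeR, 0 of the 114 were called without HC/PR (0% of the 5372 transcripts tested), and 13 had an unadjusted p under 0.05 in either direction, where 4.23% of all transcripts tested had. The selected transcripts had a median length of 2269 bases (quartiles 1544.5 and 3243.75), beside 1881 bases (quartiles 1226 and 2769) for all transcripts of at least 20 CPM. The part of transcript length in the differences was not tested.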

How the data were processed

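Nanopore reads of PCR-amplified cDNA were mapped by the authors to the bovine transcriptome (ARS-UCD1.2) with Minimap2 and quantified with Salmon, and the authors deposited the estimated counts of each transcript by library. They also deposited CPM values per gene, after summarising with tximport and batch correction by ComBat-seq. Of these CPM values, 100% were whole multiples of 1 read (tolerance 0.05 reads), so whole counts were recovered, called reads here. They are counts after the batch correction and can differ from the reads sequenced. Estimated depth before that correction was 302754 to 1153853 reads per library. Intervals on recovered reads cover counting error only and leave out any effect of the correction.

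Differences were paired by donor on log2(CPM + 1). The main test was limma 3.58.1 (R 4.3.3) on all 12 libraries with the donor as a block and an intensity trend, for genes reaching 5 CPM in 3 or more libraries, with Benjamini-Hochberg adjusted p under 0.05. The trend was adopted after limma without it made no calls on simulated data. The pairing comes from the labels, which give each replicate its own batch, and from the study's use of 3 donors. Libraries of the same donor deviated together in the uncorrected transcripts (18 pairs, lowest correlation 0.194). Since ComBat-seq had already removed donor differences, the spread between corrected libraries is not that of independent libraries. Count tests with edgeR 4.0.16 and DESeq2 1.42.0 on recovered reads, and edgeR on estimated counts rounded to whole numbers, were alternatives.

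The genes, the rule and the lists were chosen with earlier results of these data known. The rule for single genes took the highest level, the largest difference without rosiglitazone, and the highest and lowest difference without HC/PR. Of the 22372 gene and 38030 transcript identifiers, 0 matched the RefSeq gene table used here, so reads per transcript were not summed per gene, and gene lists and sequences were not analysed here.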

Additional observations from a re-analysis of the deposited data

How the results depend on the processing

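The median HC/PR difference stayed within the spread between donors in 21 of 21 alternatives (0.46 for the 107 genes chosen by the mean over the 9 libraries with HC/PR, of which 106 were the same), from 0.244 to 0.735 with a donor or library left out, and the median rosiglitazone difference ran from 1.24 to 1.34 with a donor left out. The number of genes depended on the rule, with 353 without a filter on low values, 61 with a stricter one, 166 and 32 at a rosiglitazone limit of 0.75 and 1.5, 50 and 163 at an insulin band of 0.25 and 0.75, and 85 to 143 with a donor left out. At 295288 to 1107442 reads per library, genes of a few reads in rDM such as ENSBTAG00000012409 have differences of low precision.

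Another scaling, pseudocount, filter or set of donors chose the genes anew (92 with TMM scaling, of which 63 were among the 107), so their counts of calls are first given for the new list and then for the 107 genes themselves. The other fits kept the 107 genes, except for the 114 uncorrected transcripts. Called higher without HC/PR than in rDM were 0 genes with TMM scaling, a pseudocount of 0.1 or the stricter filter, and 3 without a filter. They numbered 0 with the library pool in the fit, with limma without the intensity trend and in all edgeR fits, with or without the replicate block and also in the transcripts. DESeq2 called 3 with or without the block, and 0 to 1 were called with a donor or library left out. Among the 107 genes kept as a list, these settings gave the same counts (99 of them passed the stricter filter). Shares over all features were given only for limma and DESeq2 with the block and for edgeR on the transcripts. Nothing about the 107 genes is read from the other counts. ENSBTAG00000022155 had an adjusted p between 8.19e-06 (DESeq2 with the block) and 0.654 (without donor C), with 0.508 by limma without the trend.

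Genes called lower without HC/PR than without rosiglitazone numbered 18 by limma, 17 by edgeR and 14 by DESeq2 without the replicate block. With the block they numbered 8, 6 and 6 in the same order. They numbered 15 at an adjusted p under 0.1, 0 without the trend, 1 of the 114 uncorrected transcripts with or without the block, and 1 to 19 with a donor or library left out. The count was 19 of 143 newly chosen genes without donor B and 1 of 138 without donor C, and 16 and 0 of the 107 genes. Genes called higher without HC/PR than without insulin numbered 6 by limma, 5 by edgeR and 9 by DESeq2 without the block. With it they numbered 2, 3 and 6 in the same order. They numbered 0 of the genes chosen anew with TMM scaling (2 of the 107), 0 without the trend and in the uncorrected transcripts, 1 with a pseudocount of 0.1 or the pool, 8 at an adjusted p under 0.1, and 0 to 6 with a donor or library left out (1 to 7 of the 107 with a donor left out). The share of all tested genes called was given for these comparisons only by limma with the block. Nothing about the 107 genes is read from the other counts. The cause of these changes was not tested.

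The HC/PR difference of ENSBTAG00000019203 changed sign with libraries left out (-0.38 to 0.22), and so did that of ENSBTAG00000006187 (-2.47 to 0.53), which was also 0.0652 with the replicate block and pool and 0.16, 0.15 and 0.18 by edgeR with the block, without it and with DESeq2 size factors. Sums of reads per gene before batch correction were not run, since transcripts could not be paired with genes. The counts in the 107 genes kept as a list were added after the data were seen, as were the mean over 9 libraries, the fit without the trend and those of the uncorrected transcripts.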
